A study of Sus scrofa with 2 samples.

Results

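Transcripts of 8 genes best known from nerve cell synapses were measured in nuclei of the pig heart. They were the presynaptic adhesion gene NRXN3, the AMPA receptor subunit genes GRIA1 and GRIA2, the kainate receptor subunit genes GRIK1 and GRIK3, the metabotropic glutamate receptor gene GRM7, the synaptotagmin gene SYT14 and the scaffold gene DLG2. Each name was looked up among the gene symbols of both matrices, and all 8 were found among 31908 genes, each on 1 row. The names had been put together with earlier results of these data in view, from differences between the libraries in cardiomyocytes, so the levels there are given as a description.

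Neurexins sit in the presynaptic membrane and bind neuroligins, LRRTM proteins and other partners across the cleft. AMPA and kainate receptors are glutamate-gated cation channels built from subunits, whereas metabotropic receptors act through G proteins, and GRM7 belongs to those coupled to inhibitory G proteins. Synaptotagmins are membrane proteins of vesicle traffic, of which SYT14 is thought to work without binding calcium, and DLG2 is a scaffold of the MAGUK family that holds channels and receptors at the membrane. Outside the brain, glutamate receptors are also known from glia of peripheral nerve and from cells of the vessel wall.

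Nuclei were taken from frozen tissue of the left ventricular free wall of miniature pigs of the Bama breed. One library was triple-transgenic (TG, PNPLA3I148M-GIPRdn-hIAPP). These names stand for the I148M form of PNPLA3, a lipid droplet protein, for dominant-negative GIPR, an incretin receptor, and for human islet amyloid polypeptide. The other was wild-type (WT). Both had been fed fat and sucrose in excess for 12 months (high-fat-high-sucrose), so no library without that diet enters any comparison. The labels give neither the promoters of the transgenes, nor the age and sex of the animals, nor how many animals a library holds. As each genotype has 1 library, no difference has a replicate check and none was tested, and genotype cannot be told apart from animal, dissection or library preparation. All intervals below are 95% intervals of counting error only, since reads of 1 nucleus share their source.

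The TG library held 15000 barcodes and the WT library 18251, with 89324966 and 127126477 UMIs, which are counted RNA molecules. After filtering, 14939 TG nuclei and 16725 WT nuclei were kept, with median depths of 3937 and 5442 UMIs. No TG barcode had fewer than 1972 UMIs, against 500 UMIs in WT. The libraries shared 81 barcode sequences, 75 of them among kept nuclei. Cardiomyocyte-like nuclei, named like all classes from marker transcripts, numbered 5291 in TG and 6782 in WT, with median depths of 7651 and 10057 UMIs. Heart muscle transcripts were present in every class. In macrophage-like nuclei, 11 cardiomyocyte markers had a median of 44.2% of their TG cardiomyocyte level in TG and 15.2% of their WT cardiomyocyte level in WT. RYR2, a large intron-rich marker, stood at 5.36% and 1.61% by the same measure. Of 13 neuron markers in the matrices, 4 were at 0 in TG and 3 in WT cardiomyocyte-like nuclei, and the median was 0.194 CPM in TG and 0.0669 CPM in WT.

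All 8 genes are long. On Sscrofa11.1, the build of the files, with gene bounds from RefSeq, NRXN3 lies on chromosome 7 from base 101132780 to 102779809, a span of 1647 kb. GRIA1 lies on chromosome 16 from 69332786 to 69654366 (322 kb), and GRIA2 on chromosome 8 from 46078122 to 46247144 (169 kb). GRIK1 occupies chromosome 13 from 192877707 to 193296954 (419 kb), and GRIK3 chromosome 6 from 92880297 to 93128048 (248 kb). GRM7 is on chromosome 13 from 63318002 to 64203982 (886 kb). SYT14 (132810526 to 133040855, 230 kb) and DLG2 (17575991 to 19547417, 1971 kb) are both on chromosome 9. Each span is longer than at least 90.4% of all genes with a span. No protein-coding RefSeq gene overlaps any of them. Nuclear RNA holds unspliced introns, and the counts were not divided by length, so levels are compared between libraries and classes and not between genes.

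In cardiomyocyte-like nuclei, NRXN3, GRIA1, GRIK1, SYT14 and GRM7 were higher in the TG library than in the WT library, DLG2 and GRIK3 were on neither side, and GRIA2 was nearly absent. Levels are CPM, counts per 1000000 nuclear-encoded UMIs summed over the class. A gene counted as measured with at least 20 UMIs over both libraries, and as higher or lower with a ratio of at least 1.5 either way and an interval that left out 1. By this rule 5 of 7 measured members were higher in TG and none was lower. Over all 18876 genes measured in the class, 25.6% were higher and 8.82% were lower, and the median log2 ratio was 0.08. At least 5 times higher were 4 of the members and 3.66% of all genes, and at least 10 times higher were 3 members and 1.27% of all genes. Because the members were picked from this contrast, nothing is read from these shares.

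Among the AMPA subunits, GRIA1 had 18856 UMIs or 407 CPM in TG (401 to 413), against 1858 UMIs or 24.9 CPM in WT (23.8 to 26.0). That made a ratio of 16.4 (15.6 to 17.2). GRIA1 was detected in 73.3% of TG nuclei and 10.00% of WT nuclei. After each nucleus was thinned to 2000 UMIs, which removes the difference in depth, the shares were 44.7% in TG and 3.70% in WT. In macrophage-like nuclei, taken as the background, the thinned shares were 2.50% in TG and 0.0821% in WT, at median depths before thinning of 2885 and 4107 UMIs. GRIA2, the subunit that makes AMPA channels nearly impermeable to calcium, had 6 UMIs in TG and 5 UMIs in WT, or 0.129 and 0.0669 CPM. GRIA2 therefore stayed below the minimum for a ratio, and none of the 9 classes exceeded 1.81 CPM.

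Of the kainate subunits, GRIK1 measured 114 CPM in TG (111 to 117), against 13 CPM in WT (12.2 to 13.8). The ratio was 8.75 (8.17 to 9.38), and the thinned share of nuclei with GRIK1 was 16.7% in TG and 2.21% in WT. In macrophage-like nuclei the GRIK1 shares were 2.00% and 0.493%. GRIK3 had 17 UMIs in TG and 15 UMIs in WT cardiomyocyte-like nuclei, or 0.367 and 0.201 CPM, with a ratio of 1.83 whose interval (0.858 to 3.93) holds 1. After thinning it was 0.410 (0.0405 to 2.29). The metabotropic receptor GRM7 was at 3.45 CPM in TG and 1.47 CPM in WT, a ratio of 2.34 (1.83 to 3.02). With each nucleus weighted equally the ratio was 1.51. Its thinned shares, 0.626% in TG and 0.231% in WT, lay at or below those of macrophage-like nuclei, 0.832% and 0.575%. Those GRM7 shares are thus at background, and the difference in cardiomyocyte-like nuclei is given as counted and not as expression.

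NRXN3 stood at 217 CPM in TG (213 to 221), against 11.5 CPM in WT (10.7 to 12.3), a ratio of 19.0 (17.7 to 20.3). SYT14 had 80.2 CPM in TG (77.6 to 82.8), against 6.92 CPM in WT (6.34 to 7.54), a ratio of 11.6 (10.6 to 12.7). Thinned nuclei with SYT14 made up 12.0% in TG and 1.26% in WT, and in macrophage-like nuclei 1.16% and 0.575%. DLG2 was lower in TG by less than the rule asks, with 80.2 CPM in TG and 106 CPM in WT, a ratio of 0.758 (0.729 to 0.788). That value pools clusters of nuclei that the libraries filled unequally, and within clusters 0, 1 and 2, given below, the gap was wider. Ranked by ratio among the 18876 genes, NRXN3 came 100th, GRIA1 126th, SYT14 197th and GRIK1 292nd, while GRM7 came 2698th and DLG2 15657th. GRIK3, at rank 4054, is the member nearest outside the rule for a higher level, and GRM7 the nearest inside.

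**Figure D1:**
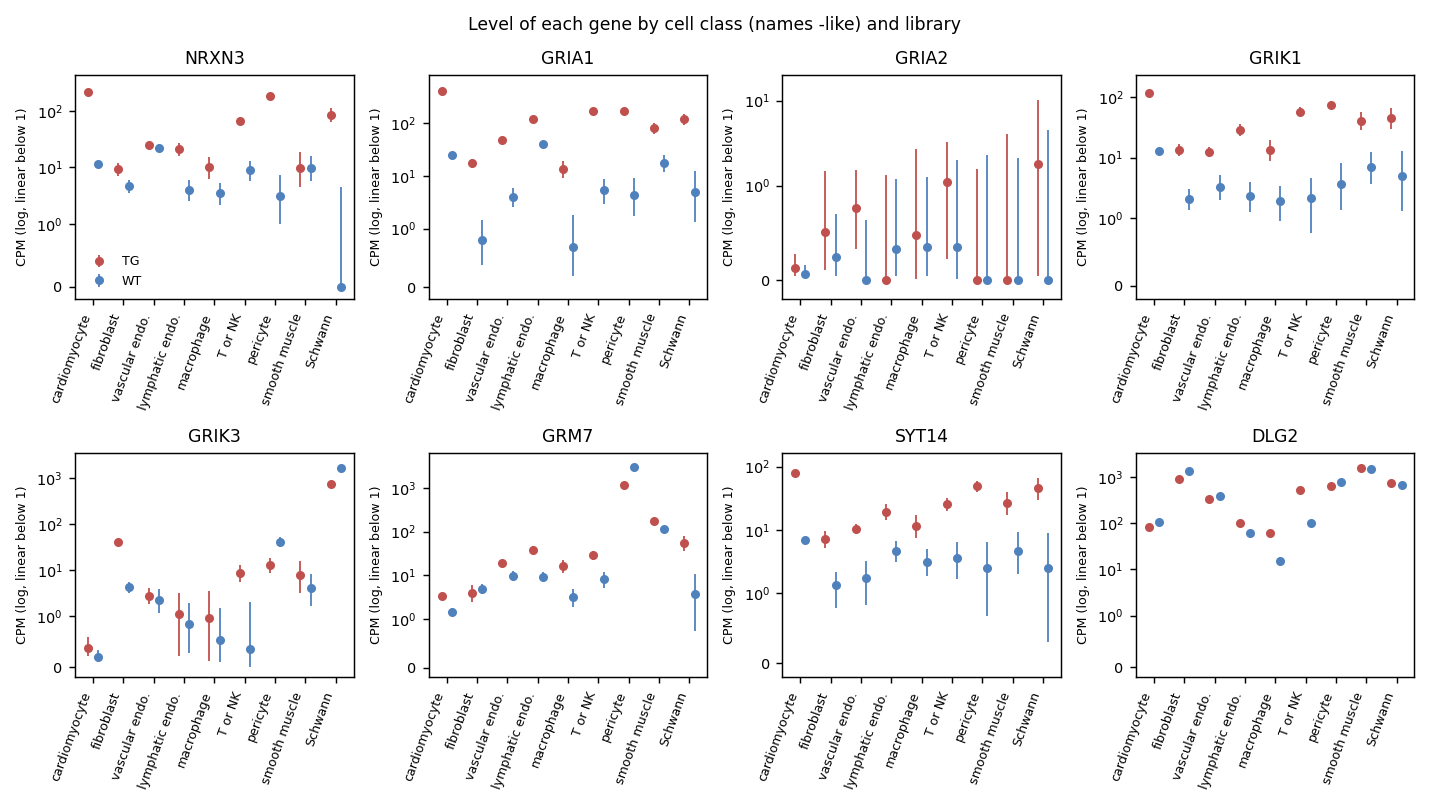
Level of each gene in CPM (log axis, linear below 1) in 9 cell classes, with TG (red) to the left of WT (blue) and bars for the exact 95% Poisson interval. GRIA1, GRIK1, SYT14 and NRXN3 are highest in TG cardiomyocyte-like nuclei, GRM7 is highest in pericyte-like nuclei, GRIK3 in Schwann-like nuclei and DLG2 in smooth muscle-like nuclei.

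The high NRXN3 level of TG did not come from most nuclei. NRXN3 had a UMI in 765 of 5291 TG nuclei and 314 of 6782 WT nuclei. At least 5 UMIs were found in 307 TG nuclei and 19 WT nuclei, and at least 20 UMIs in 136 TG nuclei and 8 WT nuclei. The highest single nucleus held 240 NRXN3 UMIs in TG and 132 in WT. In TG the top 5% of nuclei by NRXN3 count held 90.8% of all its UMIs, and the top 1% held 48.1%, whereas in WT the top 1% held 71.1%. For GRIA1 the top 5% of TG nuclei held 24.3% of its UMIs, against 79.7% in WT. This share also depends on the level, and only 10.00% of WT nuclei had a GRIA1 UMI. After thinning, the variance of the GRIA1 count was 1.84 times its mean in TG and 1.71 times in WT. RYR2, present in nearly every nucleus, had 17.1% and 15.6% of its UMIs in the top 5%. These counts were looked at after the levels had been seen.

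After thinning, depth no longer differs between nuclei, and NRXN3 remained uneven. It was detected in 8.19% of TG nuclei (7.46 to 8.96) and 1.11% of WT nuclei (0.870 to 1.40). In macrophage-like nuclei, the background, the shares were 2.50% in TG (1.40 to 4.08) and 0.739% in WT (0.338 to 1.40), so the WT share of cardiomyocyte-like nuclei was not clearly above background. Had the same number of UMIs been spread evenly, with Poisson counts, 36.7% of TG nuclei and 2.39% of WT nuclei would hold one. For GRIA1 the shares under an even spread were 54.5% in TG and 4.95% in WT, nearer to the 44.7% and 3.70% observed. The variance of the thinned NRXN3 count was 16.1 times its mean in TG and 10.8 times its mean in WT. That placed NRXN3 at rank 3 of 7800 genes in TG and rank 6 of 7608 genes in WT, where the median gene was at 1.09 and 1.08. DLG2 ranked 73 in TG and 86 in WT, and GRIA1 ranked 172 and 191.

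Thinned nuclei with at least 3 NRXN3 UMIs numbered 211 in TG, or 4.0%, with a mean of 10.1 UMIs each. In WT there were 8, or 0.123%, with a mean of 11.2 UMIs. Thus between the libraries the number of such nuclei differed, and their mean count was close. The 211 TG nuclei had a median depth before thinning of 7672 UMIs, against 7676 UMIs in TG nuclei without NRXN3. Cluster 1 held 70.1% of them and 65.7% of the TG nuclei without NRXN3, and cluster 13 held 9.0% and 14%. GRIA1 was detected in 37.9% of the nuclei with at least 3 NRXN3 UMIs (31.3 to 44.8) and in 45.2% of those without (43.8 to 46.6). GRIK1 was found in 17.1% and 16.6%, SYT14 in 9.48% and 12.2%, and DLG2 in 11.4% and 10.1%, each with overlapping intervals. With every count above 5 UMIs in a nucleus set to 5, the NRXN3 ratio was 8.69 (7.82 to 9.67) and the GRIA1 ratio 13.4 (12.7 to 14.1).

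**Figure D2:**
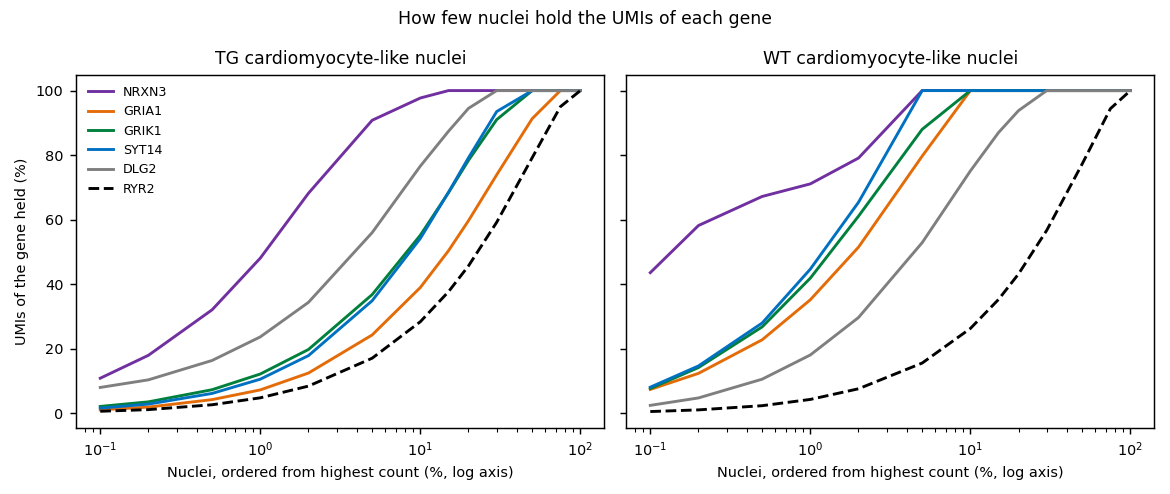
Cumulative share of a gene's UMIs (vertical, %) held by the nuclei with the highest counts (horizontal, % of cardiomyocyte-like nuclei, log axis), for TG on the left and WT on the right. The NRXN3 curve lies above the others in both libraries up to 2% of nuclei, while GRIA1 is the closest of the 5 genes to RYR2 in TG.

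Single nuclei with several of the 8 genes were far more frequent in TG. Thinned to 2000 UMIs, 1195 of 5274 TG nuclei had at least 2 of the genes, which is 22.7% (21.5 to 23.8). In WT 95 of 6485 nuclei did, or 1.46% (1.19 to 1.79). Multiplying the shares of the single genes, as if they were detected independently, gives 21.9% in TG and 1.27% in WT. The observed share thus lay within its counting interval of the product in both libraries. At least 3 genes were found in 3.68% of TG nuclei and 0.0154% of WT nuclei, which is 194 nuclei and 1 nucleus. In TG, 34.0% of nuclei had none of the 8 genes, and in WT 80.3%. Without thinning, at least 2 genes were detected in 60.4% of TG nuclei and 10.3% of WT nuclei.

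Pairs of genes were close to independence once depth was equal. In TG, 10 of 28 pairs had a product of shares of at least 20 nuclei, and nuclei with both genes were between 0.865 and 1.13 times that product, with a median of 1.06. GRIA1 and GRIK1 were found together in 427 TG nuclei, against 394 from the product. GRIA1 and SYT14 shared 299 nuclei, against 284. The lowest pair was NRXN3 and GRIA1, with 167 nuclei against 193. In WT 1 pair reached 20 nuclei, GRIA1 and DLG2, with 36 nuclei against 30.0 from the product. Without thinning, all 14 TG pairs and all 10 WT pairs of that size were above 1, with medians of 1.16 and 1.44, and the nuclei then differ in depth. Across thinned nuclei, no gene correlated with the summed count of the 8 genes beyond an r of 0.082 in 5274 TG nuclei (STXBP5L) or 0.064 in 6485 WT nuclei (PLD1). Correlations this weak in sparse counts are no finding.

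**Figure D3:**
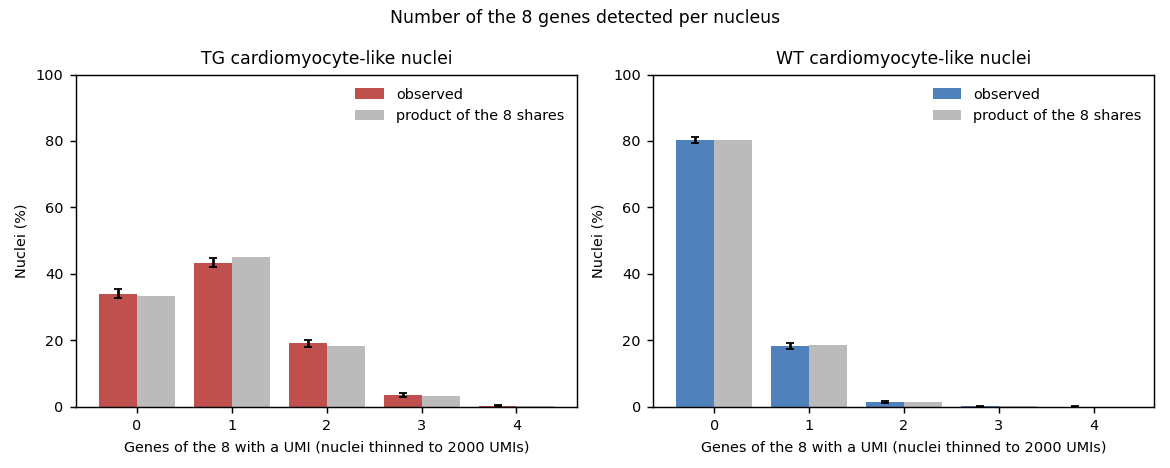
Share of cardiomyocyte-like nuclei (vertical, %) with 0 to 4 of the 8 genes detected after thinning to 2000 UMIs, for TG on the left and WT on the right, with exact 95% intervals. Grey bars give the share from multiplying the 8 single shares, and they lie close to the coloured bars in both libraries.

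The cardiomyocyte-like nuclei fell into 4 clusters that the libraries filled unequally. Cluster 0 held 161 TG and 4627 WT nuclei, cluster 1 held 3482 and 94, cluster 2 held 921 and 2037, and cluster 13 held 727 and 24. The 8 genes and the other synaptic genes were kept out of the variable genes used for clustering. Within cluster 2, which both libraries filled well, GRIA1 was at 244 CPM in TG (230 to 259) and 9.62 CPM in WT (8.03 to 11.4). NRXN3 stood there at 209 CPM in TG and 11.7 CPM in WT, GRIK1 at 80.2 and 9.55 CPM, and SYT14 at 53.1 and 5.79 CPM. DLG2 was at 40.9 CPM in TG and 79.8 CPM in WT in this cluster. In cluster 0 DLG2 was at 60.2 CPM in TG and 110 CPM in WT, and in cluster 1 at 74.5 and 165 CPM. Each of these gaps was wider than that over the class. NRXN3, GRIA1, GRIK1 and SYT14 were thus higher in TG among nuclei that clustered together.

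In cluster 0, the 161 TG nuclei had 289 CPM of GRIA1 and 180 CPM of NRXN3, and the WT nuclei 26.3 and 11 CPM. In cluster 1, GRIA1 was at 394 CPM in TG and 93.7 CPM in the 94 WT nuclei (73.9 to 117), and NRXN3 at 241 CPM in TG and 25.5 CPM in WT. Those WT nuclei had more GRIA1 than the WT nuclei of cluster 0, and their intervals did not overlap. Among TG nuclei, GRIA1 ran from 244 CPM in cluster 2 to 540 CPM in cluster 13, and NRXN3 from 145 CPM in cluster 13 to 241 CPM in cluster 1. At equal depth, at least 2 of the 8 genes were detected in 11.9% of TG nuclei and 0.739% of WT nuclei of cluster 2. In cluster 13, 31.3% of TG nuclei had at least 2.

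**Figure D4:**
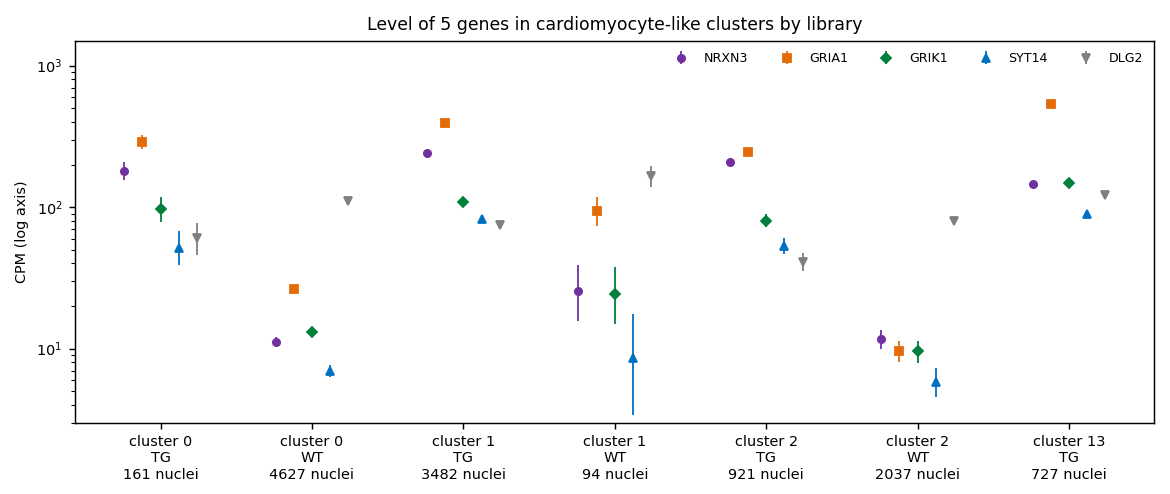
Level of 5 genes (CPM, log axis) in each cardiomyocyte-like cluster with at least 50 nuclei of a library, TG left of WT, with exact 95% Poisson intervals and the number of nuclei below. In clusters 0, 1 and 2 the TG values of NRXN3, GRIA1, GRIK1 and SYT14 lie above the WT values, and the DLG2 values lie below.

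GRM7, GRIK3 and DLG2 had their highest level outside cardiomyocytes in both libraries. In WT alone, NRXN3 was also higher in vascular endothelial-like nuclei and GRIA1 in lymphatic endothelial-like nuclei than in cardiomyocyte-like nuclei. GRM7 was highest in pericyte-like nuclei, the cells that wrap capillaries, with 1180 CPM in TG (1136 to 1224) and 3071 CPM in WT (2986 to 3158). It was the leading gene of that cluster, although it took no part in the clustering. GRM7 was detected in 374 of 474 TG nuclei and 290 of 375 WT nuclei, and after thinning in 66.6% and 78.9%. The TG level was lower, with a ratio of 0.384 (0.366 to 0.402). All 10 pericyte markers were also lower in TG there, with a median ratio of 0.496, and their part in the GRM7 ratio was not tested. Among nuclei with at most 5 RYR2 UMIs, GRM7 was at 2085 CPM in TG and 4351 CPM in WT, a ratio of 0.479 (0.455 to 0.505). The ratio was 0.773 (0.717 to 0.834), no longer past 1.5 times, with counts above 5 UMIs in a nucleus set to 5, and 0.176 (0.160 to 0.192) when the libraries were clustered separately. The next class for GRM7 was smooth muscle-like nuclei, with 171 CPM in TG and 115 CPM in WT.

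GRIK3 was highest in Schwann-like nuclei, the glia of peripheral nerve, with 724 CPM in TG (655 to 799) and 1660 CPM in WT (1572 to 1750). The ratio was 0.437 (0.389 to 0.488). It was detected in 113 of 136 TG nuclei and 154 of 167 WT nuclei, and after thinning in 71.4% and 85.4%, while the thinned shares in macrophage-like nuclei were 0% and 0.164%. Of 9 Schwann markers measured, 1 was higher and 4 were lower in TG, with a median ratio of 0.683. With counts above 5 UMIs in a nucleus set to 5, the GRIK3 ratio was 0.756 (0.661 to 0.862), no longer past 1.5 times, and with the library-wide profile taken off it was 0.651. Among nuclei with at most 5 RYR2 UMIs it was 0.460 (0.406 to 0.520). GRIK3 was also lower in TG pericyte-like nuclei, with 12.8 CPM in TG and 41.5 CPM in WT. Fibroblast-like nuclei went the other way, with 40.4 CPM in TG (35.4 to 45.9) and 4.17 CPM in WT (3.12 to 5.47), a ratio of 9.69 (7.15 to 13.4), or 25.6 with the library-wide profile taken off. Most TG fibroblast-like nuclei were in cluster 5, with 1874 TG and 39 WT nuclei, and most WT ones in cluster 4, with 3 TG and 2282 WT nuclei. In cluster 14, which both libraries filled, GRIK3 was at 8.35 CPM in TG (1.72 to 24.4) and 1.56 CPM in WT (0.425 to 4.0), with overlapping intervals.

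DLG2 was found in every class and was highest in smooth muscle-like nuclei, with 1557 CPM in TG and 1441 CPM in WT. Those nuclei lay mostly in cluster 20 for TG and cluster 22 for WT, and the ratio of 1.08 was 1.54 (1.39 to 1.70) with counts above 5 set to 5. In fibroblast-like nuclei DLG2 was lower in TG, with 876 CPM in TG (852 to 900) and 1326 CPM in WT (1306 to 1346), a ratio of 0.661. In cluster 14 alone it was at 518 CPM in TG and 980 CPM in WT. The fibroblast ratio turned to 1.03 (0.995 to 1.08) when counts above 5 UMIs in a nucleus were set to 5. It was 0.680 among nuclei with at most 5 RYR2 UMIs, 0.683 after thinning and 0.905 with the library-wide profile taken off, each short of 1.5 times lower. Schwann-like and pericyte-like nuclei had 726 and 644 CPM in TG and 669 and 767 CPM in WT. The widest gap was in T or NK lymphocyte-like nuclei, with 527 CPM in TG (500 to 555) and 98.3 CPM in WT (87.1 to 111), a ratio of 5.36 (4.71 to 6.12). DLG2 was detected there in 273 of 573 TG nuclei and 70 of 625 WT nuclei. Among those with at most 5 RYR2 UMIs, DLG2 was at 780 CPM in TG and 77.6 CPM in WT, a ratio of 10.1 (8.51 to 11.9). The level of DLG2 in this class was 657% of that in TG cardiomyocyte-like nuclei. The T or NK lymphocyte markers summed to 2332 CPM in TG and 5743 CPM in WT in this class, and the fibroblast markers to 932 and 414 CPM. The part of these marker differences in the DLG2 ratio was not tested.

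GRIA1 in lymphatic endothelial-like nuclei, which line lymph vessels, showed opposite differences in the 2 clusters of the class. Over the class it was at 117 CPM in TG and 39.7 CPM in WT, a ratio of 2.94 (2.48 to 3.49). In cluster 7, with 568 TG and 907 WT nuclei, GRIA1 was at 14 CPM in TG (8.95 to 20.8) and 44.5 CPM in WT (38.6 to 50.9). In cluster 21, with 137 TG and 138 WT nuclei, it was at 290 CPM in TG (258 to 325) and 22.0 CPM in WT (14.6 to 31.8). RYR2 was at 11127 CPM in TG and 11751 CPM in WT in cluster 21, against 474 and 487 CPM in cluster 7, so this heart muscle transcript was far higher in cluster 21 in both libraries. Among lymphatic endothelial-like nuclei with at most 5 RYR2 UMIs, GRIA1 was at 15.3 CPM in TG and 45.3 CPM in WT, a ratio of 0.337 (0.219 to 0.501). In WT this class stood at 160% of the cardiomyocyte level of GRIA1, while RYR2 stood at 13.7%. The clusters of this class were compared after the class value had been seen.

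NRXN3 outside cardiomyocytes again rested on few nuclei. In vascular endothelial-like nuclei it was at 25 CPM in TG and 22.3 CPM in WT, a ratio of 1.13 whose interval (0.908 to 1.40) holds 1. This ratio depended on the processing. It was 0.277 (0.202 to 0.377) with at least 2000 UMIs per nucleus in both libraries and 2.56 (2.22 to 2.96) with each library clustered on its own, so no direction is given. The WT value was 194% of the WT cardiomyocyte level. In WT, 27 of 1605 of these nuclei had a NRXN3 UMI, and the 16 highest held 91.5% of its UMIs. Cluster 8 held 120 of the 129 WT UMIs, at 45.6 CPM, against 30.2 CPM in TG. Other clusters of the class went the other way. In cluster 12 NRXN3 was at 50.9 CPM in TG (42.2 to 61.0) and 0 CPM in the 122 WT nuclei (0 to 8.63). In cluster 3 it was at 9.24 CPM in TG and 3.68 CPM in WT, with overlapping intervals. In pericyte-like nuclei NRXN3 was at 184 CPM in TG and 3.1 CPM in WT, but 249 of the 432 TG UMIs came from 1 nucleus, and with counts above 5 set to 5 the ratio of 59.3 became 10.3. Among nuclei with at most 5 RYR2 UMIs it was 6.15 (2.11 to 24.4). In Schwann-like nuclei it was at 85.1 CPM in TG and had no UMI in WT. The interval of this ratio begins at 18.0. Among nuclei with at most 5 RYR2 UMIs the TG level was 18.5 CPM on 6 UMIs, again with none in WT, and the interval begins at 1.99.

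The members that were high in TG cardiomyocyte-like nuclei were also higher in TG in most other classes, where the summed cardiomyocyte markers were higher as well. RYR2 alone did not follow this everywhere. In vascular endothelial-like clusters 3, 8 and 12 it was at 1031, 3525 and 1191 CPM in TG. The WT levels of RYR2 there were 1587, 3732 and 1773 CPM. In TG T or NK lymphocyte-like nuclei GRIA1 stood at 41.0% of its cardiomyocyte level, GRIK1 at 50.5%, SYT14 at 31.9% and NRXN3 at 30.5%, beside 41.9% for RYR2 and 42.4% for CTNNA3, another large cardiomyocyte gene. In TG fibroblast-like nuclei GRIA1 and NRXN3 were at 4.26%, GRIK1 at 11.9% and SYT14 at 8.98%, beside 5.67% for RYR2 and 4.53% for CTNNA3. In TG pericyte-like nuclei GRIA1 was at 41.3%, GRIK1 at 64.3%, SYT14 at 61.0% and NRXN3 at 84.6%, beside 49.0% for RYR2. Of 11 cardiomyocyte markers, RYR2 was the lowest in the lymphocyte-like and pericyte-like nuclei, and CTNNA3 in the fibroblast-like nuclei. The median of the 11 was 61.0% in lymphocyte-like, 51.8% in fibroblast-like and 70.9% in pericyte-like TG nuclei. How near the members lie to heart muscle RNA thus depends on the marker taken. The summed level of the 12 cardiomyocyte markers ran from 9488 to 21155 CPM in the other TG classes and from 3127 to 17963 CPM in the other WT classes. Its part in the ratios of these classes was not tested. Among nuclei with at most 5 RYR2 UMIs, GRIA1 had 20.7 CPM in TG and 0.976 CPM in WT T or NK lymphocyte-like nuclei, a ratio of 21.2 (5.38 to 183) on 30 and 2 UMIs. Over all nuclei of that class it had 167 CPM in TG and 5.32 CPM in WT. In the same low-RYR2 lymphocyte-like nuclei NRXN3 had a ratio of 1.11 (0.563 to 2.14), against 7.48 over the class, and SYT14 1.21 (0.336 to 4.21), against 7.20. GRIK1 had 7.54 (2.16 to 40.4), against 27.0. SYT14 and GRIK1 were then below the minimum of 20 UMIs. RYR2 itself was still higher in TG in these nuclei, with a ratio of 2.39 (2.09 to 2.73).

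Counted by class, all 7 measured members were higher in TG in T or NK lymphocyte-like nuclei, where 17.6% of all measured genes were higher and 13.6% lower. All 6 measured members were higher in macrophage-like nuclei (20.8% of all genes higher, 8.35% lower) and in lymphatic endothelial-like nuclei (13.9% and 11.4%). In fibroblast-like nuclei 5 of 7 were higher and DLG2 was lower (16.9% and 9.01%). In Schwann-like nuclei 5 of 7 were higher and GRIK3 was lower (11.6% and 9.71%). In pericyte-like nuclei 4 of 7 were higher, and GRIK3 and GRM7 were lower (12.7% and 11.9%). In vascular endothelial-like nuclei 4 of 7 were higher (11.3% and 7.88%), and in smooth muscle-like nuclei 3 of 6 (15.4% and 7.93%), with no member lower in either. Only measured members enter these counts, and a gene can reach 20 UMIs through its high library alone. Among nuclei with at most 5 RYR2 UMIs, a limit chosen after the data were seen, several of these calls were lost. The share over all genes was not computed for these nuclei, so their counts have no base beside them and are a description only. In T or NK lymphocyte-like nuclei 4 members were then measured and 3 were higher, GRIA1, GRM7 and DLG2. In lymphatic endothelial-like nuclei 3 of 6 were higher, GRIK1, GRM7 and DLG2, while GRIA1 was lower. NRXN3 there had a ratio of 1.97 (0.962 to 3.96) and SYT14 of 0.862 (0.310 to 2.11). In macrophage-like nuclei 6 of 6 were still higher, and in fibroblast-like nuclei 5 of 7, with none lower. In vascular endothelial-like nuclei 4 of 7 were higher, and in pericyte-like nuclei 3 of 6, with GRIK3 and GRM7 lower. In Schwann-like nuclei 3 were measured, of which GRM7 was higher and GRIK3 lower, and in smooth muscle-like nuclei neither of 2 was called. RYR2 itself was higher in TG among these nuclei, by 2.72 times in macrophage-like and 2.60 times in fibroblast-like nuclei. Its ratio reached 3.27 in Schwann-like nuclei, and only in smooth muscle-like nuclei, with 1.19 (0.988 to 1.43), did the interval hold 1. The limit thus did not make heart muscle RNA equal, and its part in these calls was not tested.

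Beyond the 8 members, 183 other genes of 13 lists of synaptic genes were looked up, and 171 were in the matrices. The lists were chosen with earlier results of these data known, so their shares are a description and no independent support. In cardiomyocyte-like nuclei 144 were measured, of which 66, or 45.8%, were higher in TG and 10, or 6.94%, were lower. Over all 18876 genes measured there, 25.6% were higher and 8.82% lower, which is also the base for each list below. The list genes were not matched to all genes by span, and the share of higher genes rose with span. Their median log2 ratio was 0.52, against 0.08 over all genes. In each list the genes farthest from an equal level are named, and the counts of a list below include any of the 8 members in it. Among 14 measured partners of neurexins 8 were higher and none lower. NLGN1, a neuroligin, had 180 CPM in TG and 46.1 CPM in WT, and ADGRL1, a latrophilin, 0.625 and 0.187 CPM.

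The other AMPA and kainate subunits had smaller ratios than GRIA1 and GRIK1. GRIA4 was at 9.34 CPM in TG and 2.62 CPM in WT, while GRIA3 was at 109 CPM in TG and 139 CPM in WT and was called neither. GRIK2 had 5.84 CPM in TG and 3.27 CPM in WT, and GRIK4 and GRIK5 were called neither. Of 6 measured NMDA and delta subunits 3 were higher, GRIN2D with 0.669 CPM in TG and 0.0268 CPM in WT and GRIN3A with 0.302 and 0.0803 CPM, both at very low levels. Among 7 metabotropic receptors 4 were higher, GRM7 included, and GRM3 had 6.60 CPM in TG and 1.74 CPM in WT.

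Scaffold genes were nearer to an equal level. Of 12 measured genes of the MAGUK family and its partners, which include DLG2, 2 were higher and 2 lower, with a median log2 ratio of -0.35. DLG3 was at 7.57 CPM in TG and 13.3 CPM in WT, and MPP3 at 10.9 and 20.6 CPM, whereas DLGAP2 was at 1.70 and 0.750 CPM. Of 15 auxiliary and scaffold genes of glutamate receptors 5 were higher and 2 lower. GRIP2, which binds AMPA receptors, was at 18.2 CPM in TG and 40.1 CPM in WT, HOMER2 at 84.2 and 162 CPM, and SHISA9 at 2.05 and 0.495 CPM.

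Among 10 measured synaptotagmins 6 were higher, SYT14 included, and none lower, and SYT1, the calcium sensor of fast release, was at 43.9 CPM in TG and 8.66 CPM in WT. Of 20 genes of vesicle fusion 6 were higher, with UNC13C at 5.95 CPM in TG and 1.23 CPM in WT. Of 9 genes of glutamate transport and synthesis 3 were higher and 1 lower, and the lower one was GLUL, which makes glutamine, with 43.8 CPM in TG and 128 CPM in WT. Receptor subunits for GABA and glycine split, with 8 of 16 higher and 2 lower. GABRG1, a subunit of GABA receptors, was at 0.474 CPM in TG and 10.5 CPM in WT. Neural adhesion genes outside these groups had 20 of 32 higher and 3 lower. LRP1B, a giant endocytic receptor, was at 1815 CPM in TG and 88.4 CPM in WT, and CNTNAP5 at 35.5 and 0.763 CPM. ROBO2, a receptor for the guidance cue SLIT, was lower in TG, with 425 CPM in TG and 2516 CPM in WT.

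**Figure D5:**
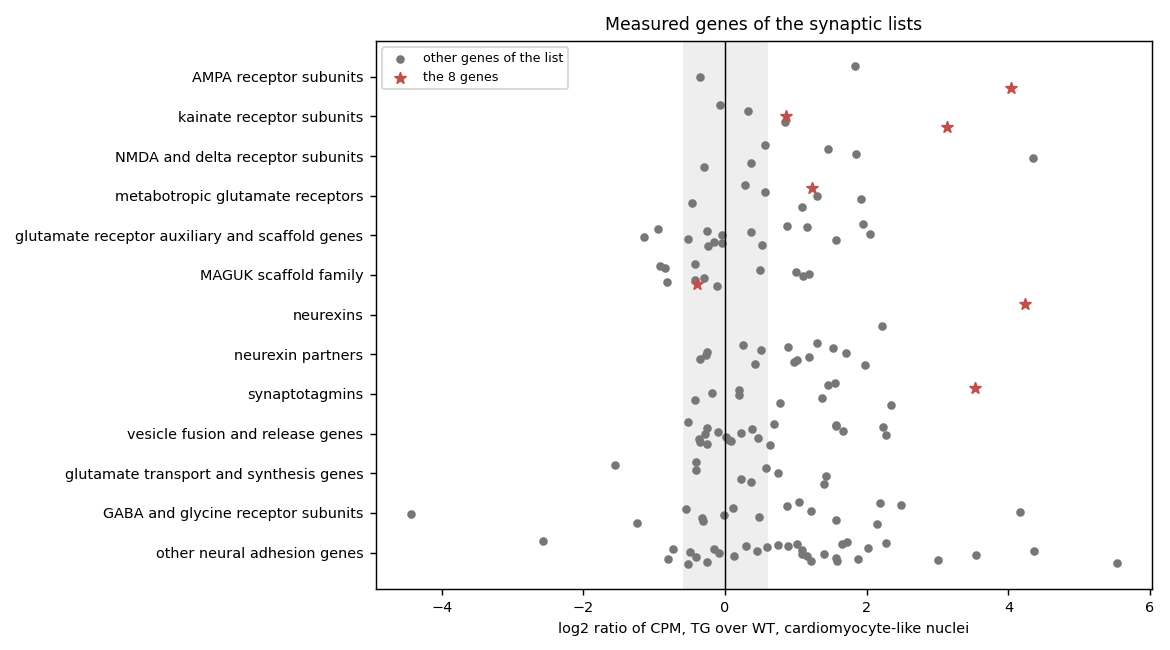
Log2 ratio of CPM (horizontal, TG over WT, cardiomyocyte-like nuclei) for each measured gene of the 13 lists, with stars for the 8 genes and a grey band for ratios under 1.5 times. NRXN3, GRIA1, GRIK1 and SYT14 lie right of 3, most other genes lie between -1 and 2.5, and the MAGUK list with DLG2 is spread around 0.

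Gene span, which was not used to choose the members, went with the ratio at the long end. Only the 12008 measured genes with a RefSeq span enter the bins, so the 25.6% over all 18876 measured genes is not their base. In cardiomyocyte-like nuclei, 18.6% of genes under 10 kb were higher in TG, 17% of those from 10 to 30 kb, 18.3% from 30 to 100 kb and 21.0% from 100 to 300 kb. The share was 32.5% of 572 genes from 300 to 1000 kb and 55.2% of 58 genes of at least 1000 kb, with a median log2 ratio of 0.77 in the last bin. NRXN3 and DLG2 are both in that longest bin and lie on opposite sides of an equal level. SYT14 is in the bin from 100 to 300 kb, where 2.05% of genes were at least 5 times higher, and GRIA1 and GRIK1 are in the next, where 3.32% were. The part of span in the members' ratios was not tested. The nearest coding genes on each side of the members that the matrices name, 32 in all, were looked at as well, and 28 were measured. Of these 6 were higher in TG, 2 were lower and 20 were called neither, with ratios between 0.487 for ZC3H12A and 2.35 for MAP3K7CL. The higher ones included DIO2 beside NRXN3, GLRA1 beside GRIA1, GLRB beside GRIA2, MAP3K7CL beside GRIK1 and TMEM126A beside DLG2. The lower ones were ZC3H12A beside GRIK3 and LMCD1 beside GRM7. None of the 28 had a ratio as high as those of NRXN3, GRIA1, GRIK1 or SYT14.

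Genes with a like profile were sought over 18 points, the 9 classes in both libraries, by Pearson's r on the log2 of CPM plus 1, among 9088 genes that reached 20 CPM at 1 point or more. The points of a library share its preparation and depth, so r is only a description. GRIA1 was most like LRP1B (0.924), SYT14 (0.923) and SMIM2 (0.921), and SYT14 and GRIK1 had an r of 0.96 with each other. NRXN3 was most like SNAP91 (0.849), MYO1H (0.847) and TACR1 (0.845). The mean profile of the members was followed most closely by SMIM2 (0.862), SRSF12, PIK3C2G, ACOT4, CES1, ADARB2, LRP1B and IL17RB (0.824). GRIA1, GRIK1, SYT14 and NRXN3 had r between 0.78 and 0.96 among themselves, while GRIK3, GRM7 and DLG2 had r of at most 0.26 with any of these 4.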

How the data were processed

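Values are the authors' deposited counts of UMIs per gene and nucleus, 1 matrix per library. Per the labels' protocols, nuclei were purified on iodixanol and libraries made with 10x Genomics 3' v3.1 kits. The submitters' processing notes name Sscrofa11.1, Cell Ranger 3.1.0 and Seurat 3.1.1, while Cell Ranger 5.0.0 stands in the matrices, per the file headers; which version made the counts is not resolved. The members and gene lists were chosen with earlier results of these data known.

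Nuclei with at least 500 genes and at most 5% mitochondrial UMIs were kept. Both libraries were clustered together without batch correction (scanpy 1.11.5, leidenalg 0.10.2, Leiden resolution 1, seed 1) from 2000 variable genes, which left out members and list genes, with 30 principal components and 15 nearest neighbours per nucleus. Clusters were named from fixed markers, when at least 40% of a class's markers stood a log2 fold of 1 above a baseline. The naming thresholds were chosen with the clusters in view. A cluster that carried another class's markers as well was called mixed and not used (1619 TG and 1192 WT nuclei), and 285 and 278 nuclei stayed unnamed. No doublet caller was run.

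Counts were summed per class and library and given as CPM, with exact Poisson intervals, conditional binomial intervals for ratios and exact Clopper-Pearson intervals for shares (scipy 1.17.1). Limits for a count of 0 use 3 counts. Thinning drew 2000 UMIs per nucleus and left out shallower nuclei, which kept 5274 TG and 6485 WT cardiomyocyte-like nuclei. The log2 ratios add 0.5 to each count. Named genes are the 8 members, of each list at most the 2 highest and 2 lowest ratios past 1.5 times, and the genes most like the members. GRIA3, GRIK4, GRIK5, the neighbouring genes, RYR2 and CTNNA3 were named after their values were seen. Scripts were tested on simulated data. Alternatives used TMM factors (edgeR 4.0.16, R 4.3.3) among others. Some genes that this rule names are not reported here. No sequence is printed.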

Additional observations from a re-analysis of the deposited data

Results flagged for a closer look

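For 3 of the 8 genes the TG and WT libraries differed in opposite directions between cell classes, past the rule of 1.5 times in each. With 1 library per genotype these differences between classes were not tested. GRIK3 was lower in TG in pericyte-like nuclei, with a ratio of TG over WT of 0.307, and in Schwann-like nuclei, with 0.437. In T or NK lymphocyte-like nuclei GRIK3 was higher, with a ratio of 24.0 (3.90 to 989) that rests on 23 UMIs in TG and 1 UMI in WT. GRM7 was lower in pericyte-like nuclei, with a ratio of 0.384, and had a ratio of 2.34 in cardiomyocyte-like nuclei, where its share of nuclei was at background. DLG2 was lower in fibroblast-like nuclei, with a ratio of 0.661 that fell short of 1.5 times under several alternatives, and higher in T or NK lymphocyte-like nuclei, with 5.36. The T or NK lymphocyte markers of that last class summed to 2332 CPM in TG and 5743 CPM in WT.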

How the results depend on the processing

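No paired analysis was possible because each genotype has 1 library, and for the same reason no library could be left out. The count of members higher in TG cardiomyocyte-like nuclei was 5, and lay between 4 and 6 under 13 alternatives. The lowest came with each library's overall RNA profile taken off and the highest with nuclei weighted equally. Neither of these has an interval, so only the ratio and the minimum of UMIs were applied there. Equal weighting added GRIK3, with a ratio of 1.56, whose interval without that weighting holds 1. Of 91 cardiomyocyte ratios under alternatives 1 crossed 1, that of GRIK3, which was 0.410 when thinned to 2000 UMIs, against 1.83, with intervals that hold 1 in both. The share of TG cardiomyocyte-like nuclei with at least 2 members, 22.7%, was 21.4% with the members and list genes kept among the variable genes and 9.22% when thinned to 1000 UMIs, by construction a lower depth. Of 176 ratios in all, 12 crossed 1, and 3 of these belonged to called values. GRIA1 in lymphatic endothelial-like nuclei had a ratio of 0.312 at Leiden resolution 2 and of 0.337 in nuclei with at most 5 RYR2 UMIs. DLG2 in fibroblast-like nuclei had 1.03 with counts above 5 UMIs in a nucleus set to 5. The RYR2 limit and the cap at 5 were chosen after seeing the data, and the cause of each change was not tested. An alternative in which a level was 0 gave no ratio and is left out of all these counts and ranges. With the library-wide profile taken off, several such levels were at 0 in TG. Among them were GRIA1 in lymphatic endothelial-like (43.8 CPM in WT), NRXN3 in vascular endothelial-like (24.6 CPM) and DLG2 in cardiomyocyte-like nuclei (70.4 CPM). In cardiomyocyte-like nuclei GRM7 and GRIK3 were then at 0 in both libraries, and GRIA2 at 0 in TG and 0.0145 CPM in WT. GRM7, called higher there, thus had no ratio under this alternative. NRXN3 in vascular endothelial-like nuclei, not called, ranged from 0.277 to 2.56 and crossed 1 in 7 of 11 alternatives. Its interval lay below 1 in 5 and above 1 in 2. DLG2 in smooth muscle-like nuclei, not called, ranged from 0.952 to 1.56. NRXN3 in cardiomyocyte-like nuclei ranged from 8.69 to 23.6, lowest with that cap. GRM7 in pericyte-like nuclei ranged from 0.176 to 0.773 and GRIK3 in Schwann-like nuclei from 0.433 to 0.756, both highest with that cap. GRM7 and GRIK3 in cardiomyocyte-like nuclei and GRIA2 in every class rest on few UMIs, so depth limits them.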
